A study of Homo sapiens with 8 samples.

Results

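Panc10.05 cells that had adapted to indisulam and were growing on it were compared with parental Panc10.05 cells that had never met the drug. Panc10.05 is an established human pancreatic cancer cell line. The samples were chosen by their labels: the 2 resistant indisulam libraries and the 2 parental untreated libraries, 4 of the 8 RNA sequencing libraries in all. The other 4 libraries were parental cells given 2 µM indisulam for 18 h and resistant cells after a drug holiday of 1 week, and they are used below only to show where the adapted, treated cells differed from them. The resistant line was 1 population, raised by the study from parental cells through stepwise increases in dose over months, and for sequencing it was kept on 2 µM indisulam without a break, although the study's methods give a lower dose for its routine culture. Both groups came from the same cell line, and the labels name no engineered change in either. The comparison therefore changes the line and the presence of the drug at once, and these cannot be told apart in it. The study describes the 2 libraries per group as technical replicates, and the tests therefore measure the spread between libraries of these cultures. The growth and treatment notes in the labels name A549, a lung cancer line, while titles and cell line entries name Panc10.05. Of 10 lung lineage markers, 8 were at 0 reads in both resistant indisulam libraries and 7 in both parental untreated libraries, NKX2-1 and the surfactant gene SFTPB among them, whereas 9 of 10 ductal epithelial markers, KRT19, KRT7 and EPCAM among them, exceeded a mean of 1 CPM, counts scaled to library size, in both groups. The summed level of the lung markers was 34.2 to 34.8 CPM in parental untreated and 33.3 to 34.1 CPM in resistant indisulam libraries, and ABCA3 was the 1 lung marker over 1 CPM in either group.

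Indisulam is one of the aryl sulfonamides known as molecular glues. It brings RBM39, an RNA-binding protein that takes part in splice site choice, to the substrate receptor DCAF15 of a cullin 4 ubiquitin ligase, and the ligase then marks RBM39 for the proteasome. Cells that lose RBM39 missplice many transcripts, and sensitive lines stop growing. Long selection on a drug can change which genes a population expresses, and the drug itself can change expression for as long as it is present.

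Parental untreated libraries held 108002436 and 105655653 reads in genes, and resistant indisulam libraries 65781780 and 93393805. Across genes on the log2 CPM scale, Pearson's r was 0.9975 between the parental untreated libraries, 0.9968 between the resistant indisulam libraries and 0.9697 to 0.9708 between a library of one group and one of the other. Transcripts of the mitochondrial genome took 4.19% and 4.33% of reads in parental untreated and 3.84% and 3.52% in resistant indisulam libraries. No molecular identifiers were used, so reads are not separate molecules, and the intervals given below cover counting error only. Markers of other cell types were scarce: the summed level of 10 immune markers was 5.99 to 6.10 CPM in parental untreated and 6.46 to 6.55 CPM in resistant indisulam libraries, with PTPRC and CD3E at 0, that of 10 fibroblast markers 1.91 to 2.01 and 4.34 to 4.41 CPM with DCN and LUM at 0, that of 10 acinar and islet markers 0.681 to 0.704 and 0.274 to 0.289 CPM, and that of 10 endothelial markers 12.2 to 12.6 and 37.5 to 37.7 CPM, with only ESAM and EGFL7 over 1 CPM and ERG and CLDN5 at 0.

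To ask how far adapted cells on the drug stood from drug-naive cells, each gene went through edgeR's quasi-likelihood test, and a gene was called at an adjusted p (Benjamini-Hochberg) below 0.05. Of 16661 genes tested, 10798 (64.8%) were called, 5359 (32.2%) higher and 5439 (32.6%) lower in resistant indisulam cells. Most of these differences were small, the median size of a called difference being 0.409 log2 units. Past 1 log2 unit the balance tilted upwards, with 1536 genes (9.22%) higher and 535 (3.21%) lower. This tilt was present at every level of expression: among 8817 genes with a mean over 10 CPM, 212 (2.40%) were higher and 77 (0.873%) lower past 1 log2 unit, and among 4555 genes with a mean under 1 CPM, 880 (19.3%) were higher and 334 (7.33%) lower. The plot of change by level places each gene by its mean over the 8 libraries. The largest rises marked in it came from genes close to silent in parental cells, as the levels below show. The shares of all genes are the background for the counts of list members below.

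**Figure D1:**
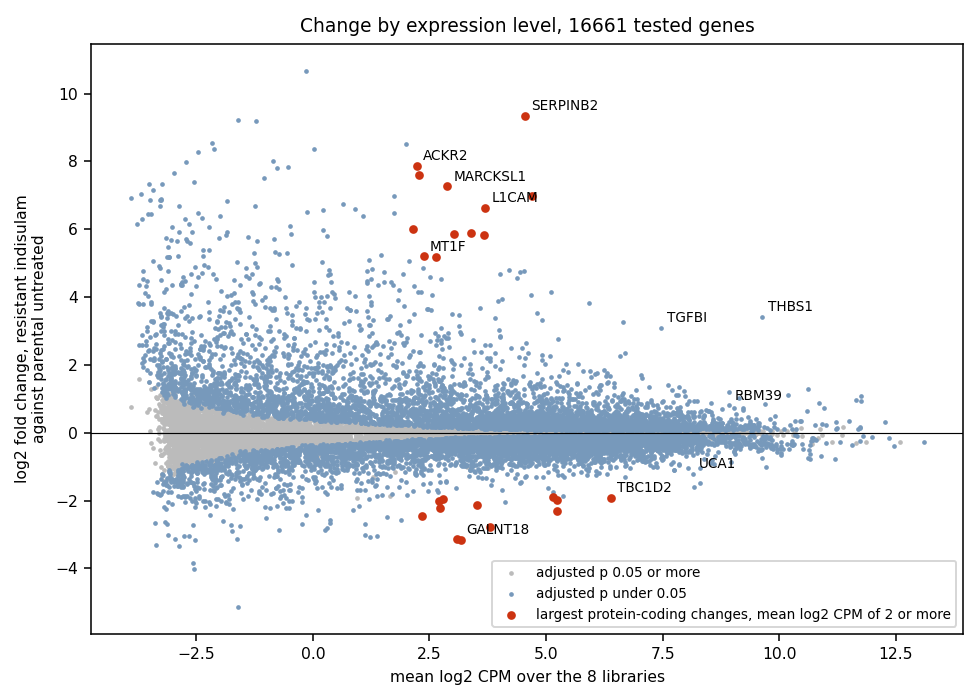
Log2 fold change of resistant indisulam against parental untreated cells (vertical axis) against the mean log2 CPM over the 8 libraries (horizontal axis), 1 point per tested gene, with blue points at an adjusted p under 0.05. Red points are the 12 largest rises and 12 largest falls among protein-coding genes whose mean log2 CPM was 2 or more, where rises reach 9.35 (SERPINB2) and falls reach -3.16 (GALNT18).

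The largest rise among protein-coding genes whose mean log2 CPM was 2 or more was in SERPINB2. SERPINB2, which encodes the plasminogen activator inhibitor PAI-2 (ENSG00000197632, GRCh38 chromosome 18, 63871692 to 63903888, plus strand), stood at 0.0914 and 0.103 CPM in the parental untreated libraries, from 10 and 11 reads, and at 63.3 and 65.1 CPM on the drug in the resistant line. Its log2 fold change was 9.35 (SE 0.0896, adjusted p 5.32e-28), and the groups were far apart. ACKR2, a decoy receptor that binds inflammatory chemokines without signalling as they do (chromosome 3, 42804752 to 42887974), went from 0.0731 and 0.0468 CPM to 14.6 and 14.3 CPM (log2 fold change 7.87, SE 0.140). SRGN, the core protein of a proteoglycan stored in secretory granules, went from 0.0822 and 0.0561 CPM to 13.0 and 14.2 CPM (7.59, SE 0.145). MARCKSL1, an actin-linked substrate of protein kinase C, went from 0.101 and 0.140 CPM to 18.5 and 18.9 CPM (7.26, SE 0.115). In all 4 genes the parental untreated libraries held 5 to 15 reads, so these were transcripts close to absent that became plainly detectable.

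The other rises chosen by the same rule had log2 fold changes between 5.17 and 6.97. SRPX2, a secreted ligand of the urokinase receptor, went from 0.576 and 0.487 CPM to 65.8 and 67.6 CPM (log2 fold change 6.97, SE 0.0709). L1CAM, a neural adhesion molecule that many carcinomas express (chromosome X, 153861514 to 153886173, minus strand), went from 0.347 and 0.290 CPM to 31.6 and 31.8 CPM (6.63, SE 0.0821). S100A9, one subunit of calprotectin, went from 0.475 and 0.496 CPM to 27.4 and 28.0 CPM (5.83, SE 0.0762). NPAS2, a circadian transcription factor, went from 0.393 and 0.281 CPM to 19.9 and 20.5 CPM (5.90, SE 0.0933). AMOT, an angiomotin that binds YAP, rose by 6.02, ERVMER34-1, an envelope gene of an endogenous retrovirus, by 5.87, MT1F, a metallothionein, by 5.20 and B3GALNT1, a glycosyltransferase, by 5.17 log2 units. ERVMER34-1 and B3GALNT1 are uncertain, because DANCR and NMD3 overlap them on the other strand and took 89.0% and 91.6% of each pair's reads. In each of the 12 genes both resistant indisulam libraries lay above both parental untreated libraries, which the rule required.

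**Figure D2:**
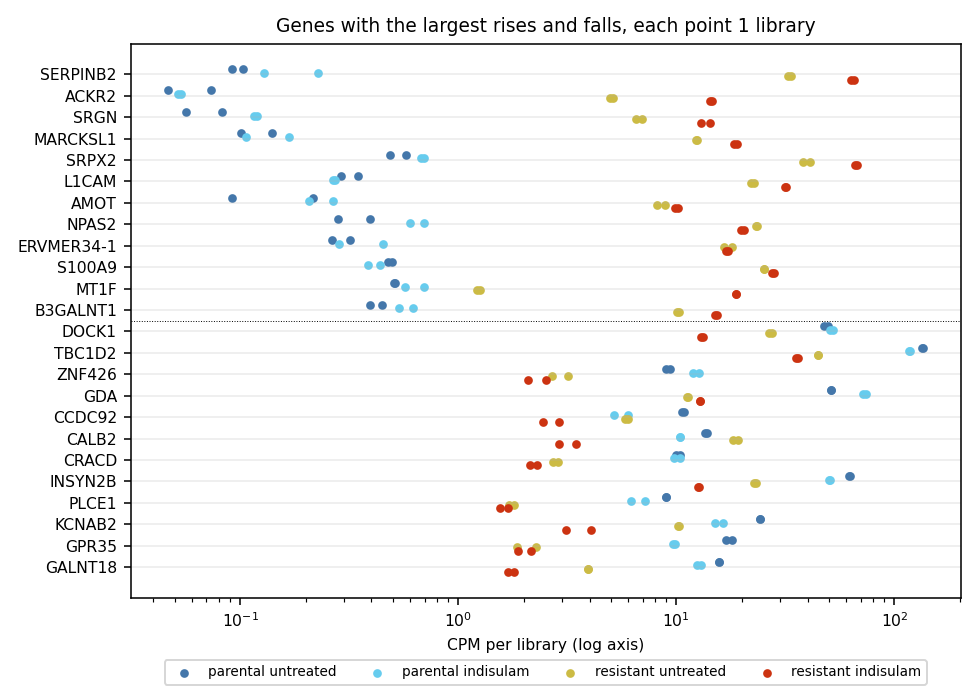
CPM per library on a log axis for the 12 protein-coding genes with the largest rises (above the dotted line) and the 12 with the largest falls (below it), with colours for the 4 groups and 1 point per library. SERPINB2 sits at 0.0914 and 0.103 CPM in parental untreated and at 63.3 and 65.1 CPM in resistant indisulam libraries, and MT1F is the 1 gene above the line whose resistant untreated libraries lie close to the parental ones.

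Apart from MT1F, these genes already stood well above the parental level in resistant cells off the drug, and some were higher still on it. Resistant untreated cells had a mean of 23.3 CPM of NPAS2, 25.1 CPM of S100A9 and 17.3 CPM of ERVMER34-1. The test of the difference is the contrast of resistant cells on the drug with resistant cells after the holiday, which shares the resistant indisulam libraries with the main comparison. In it 24.9% of all tested genes were called higher and 25.8% lower on the drug. SERPINB2 was 0.97 log2 units higher on the drug than off it (adjusted p 1.16e-15), SRGN 1.02 (adjusted p 3.86e-11) and ACKR2 1.52 (adjusted p 2.19e-14), whereas NPAS2 was lower by a log2 fold change of -0.21 (adjusted p 0.00126), and for ERVMER34-1 no difference passed the test (-0.02, adjusted p 0.785). MT1F was apart from the rest, with 0.512 and 0.505 CPM in parental untreated, a mean of 1.24 CPM in resistant untreated, and 18.7 and 18.8 CPM in resistant indisulam cells, a difference of 3.92 log2 units with the drug (adjusted p 1.38e-20).

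The largest falls were smaller than the largest rises and mostly left the gene expressed. GALNT18, a member of the polypeptide GalNAc transferase family (ENSG00000110328, chromosome 11, 11270877 to 11622005, minus strand), fell from 15.8 and 15.7 CPM to 1.69 and 1.80 CPM (log2 fold change -3.16, SE 0.0711, adjusted p 3.47e-21). INSYN2B fell from 61.8 and 62.7 CPM to 12.7 and 12.6 CPM (-2.30, SE 0.0383). TBC1D2, a GTPase-activating protein for Rab7 (chromosome 9, 98199011 to 98255649), fell from 135.4 and 134.4 CPM to 36.2 and 35.3 CPM (-1.92, SE 0.031). GDA, guanine deaminase, fell from 51.2 and 50.9 CPM to 12.8 and 12.9 CPM (-1.99, SE 0.0389), and DOCK1, an activator of the GTPase Rac, from 49.7 and 47.8 CPM to 13.2 and 13.0 CPM (-1.90, SE 0.0408). PLCE1, a phospholipase C, had a log2 fold change of -2.45, CRACD, a regulator of actin capping, of -2.22, CALB2, calretinin, of -2.13 and ZNF426, a zinc finger gene, of -1.96. GPR35 (-3.13), KCNAB2 (-2.78) and CCDC92 (-2.02) completed the rule's 12 falls. These 3 overlap CAPN10, NPHP4 and ZNF664, which held 73.7%, 45.9% and 97.1% of each pair's reads, which makes these values uncertain. CALB2 had its highest level in resistant cells off the drug (mean 18.7 CPM) and fell with the drug by 2.57 log2 units (adjusted p 5.83e-19), while PLCE1 did not pass the test between the resistant groups (-0.11, adjusted p 0.513).

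Among genes with a symbol that encode no protein and whose mean log2 CPM was 2 or more, TP73-AS1, a long noncoding RNA that starts beside TP73, rose most, from 0.503 and 0.337 CPM to 12.6 and 11.8 CPM (log2 fold change 4.86, SE 0.116). HSD17B1-AS1 (1.62), NR2F1-AS1 (1.54) and the pseudogene MYH16 (1.41) followed. MIR31HG, the host transcript of miR-31, fell from 26.9 and 27.3 CPM to 6.29 and 6.87 CPM (-2.03, SE 0.0499), and MCPH1-AS1 (-1.68), FAM86HP (-1.48) and MIRLET7A1HG, the host transcript of a let-7 cluster (-1.43), were the next falls above the same level. The reads of NR2F1-AS1 and MCPH1-AS1 were outnumbered by those of the overlapping coding genes, which held 65.0% and 58.6% of each pair. Of 2700 long noncoding RNAs tested, 251 (9.30%) were higher and 215 (7.96%) lower past 1 log2 unit, against 1213 (9.71%) and 228 (1.82%) of 12497 protein-coding genes.

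The transcript of the drug's target was higher in the adapted cells. RBM39 (ENSG00000131051, chromosome 20, 35701347 to 35742312, minus strand) stood at 331.9 and 336.5 CPM in parental untreated and 577.4 and 591.0 CPM in resistant indisulam libraries (log2 fold change 0.81, SE 0.0286, adjusted p 2.01e-17). Resistant cells off the drug had a mean of 304.8 CPM, and the difference between the resistant groups was 0.94 log2 units (adjusted p 7.28e-18). Transcript levels do not show the level of the protein, which was not measured in these libraries. The study's blots, made at a lower dose, showed strongly reduced RBM39 protein in resistant Panc10.05 cells. DCAF15, the substrate receptor (ENSG00000132017, chromosome 19, 13952509 to 13961449, plus strand), was lower, at 41.6 and 42.4 CPM in parental untreated and 27.4 and 25.8 CPM in resistant indisulam libraries (-0.66, SE 0.0386, adjusted p 2.67e-13). DDA1, an accessory subunit of the same ligase (chromosome 19, 17309518 to 17323298), had a log2 fold change of -0.34 (adjusted p 1.37e-08). Of the 16 tested genes of the degradation machinery 3 were higher, 7 lower and 6 not called, beside 32.2% and 32.6% of all genes, and the list's median log2 fold change of -0.05 was near that of all genes (-0.01). NAE1, a subunit of the enzyme that activates NEDD8, was lower (-0.32), as was the scaffold CUL4A (-0.17), while RBX1, the RING subunit, was higher (0.17). CAND1, which exchanges substrate receptors between cullins, did not pass the test (-0.004, SE 0.0275, adjusted p 0.912), and nor did the adaptor DDB1 (-0.03, adjusted p 0.416).

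The genes that work beside RBM39 in splicing differed by small steps. Of 29 splicing regulators tested, 10 were higher, 8 lower and 11 not called, near the 32.2% and 32.6% of all genes called higher and lower. None was past 1 log2 unit, and the list's median was 0.02. Without parental untreated replicate 2, 5 were lower. SRPK1, a kinase of SR proteins, was at 318.1 and 322.6 CPM in parental untreated and 297.1 and 306.8 CPM in resistant indisulam libraries (log2 fold change -0.09, adjusted p 0.00912), a call that was lost without parental untreated replicate 2 (-0.08, adjusted p 0.101). SRPK2, which overlaps KMT2E, had the lowest value of the list (-0.41, adjusted p 1.86e-09) and SRSF8 the highest (0.37, adjusted p 2.72e-09). SF3B1, the branch point factor, was higher (0.25, adjusted p 2.72e-08), and the value of U2AF2, the partner that RBM39 resembles, did not pass the test (-0.05, adjusted p 0.155), although it did without resistant indisulam replicate 1 (-0.11, adjusted p 0.00626).

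Genes of the mitochondrial death pathway were examined because the study tested inhibitors of survival proteins in adapted cells. BCL-2 family guardians hold the effectors BAX and BAK in check, and BH3-only proteins release them. Of 8 BH3-only genes 5 were higher and 1 lower, beside 32.2% and 32.6% of all genes. BMF went from 2.00 and 1.76 CPM to 6.20 and 6.56 CPM (log2 fold change 1.77, SE 0.0995, adjusted p 1.45e-13), HRK from 1.45 and 1.19 CPM to 3.41 and 3.55 CPM (1.40, SE 0.117, adjusted p 2.42e-10) and PMAIP1, which encodes NOXA, from 31.9 and 31.1 CPM to 60.3 and 63.1 CPM (0.97, SE 0.0395, adjusted p 6.66e-16). Guardians and effectors moved less: among 7 tested genes 3 were higher, with BAK1 the largest (0.27), and 3 lower. BCL2L1, which encodes BCL-xL, was at 413.5 and 410.7 CPM in parental untreated and 385.5 and 375.4 CPM in resistant indisulam libraries (-0.12, SE 0.0273, adjusted p 7.08e-04). That is the transcript alone. The study's blots, made at a lower dose, showed modestly more BCL-xL protein in resistant cells on the drug. From BH3 profiling, an assay of mitochondrial permeabilization, the study inferred a higher dependency of resistant cells on BCL-xL. BCL2 did not pass the test (0.04, adjusted p 0.652), and BCL2A1 had at most 2 reads in any library and was not tested.

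Of 35 listed genes known to be induced by interferon 33 passed the filter, and all 33 were higher in adapted cells on the drug than in naive cells, 27 of them past 1 log2 unit, with a median log2 fold change of 1.57. Among all tested genes 32.2% were called higher and 9.22% were higher past 1 log2 unit. The listed genes encode antiviral effectors and the sensors and transcription factors that switch them on. They respond to type I interferon through the interferon receptor. OAS2, a sensor of double-stranded RNA (ENSG00000111335, chromosome 12, 112978395 to 113011723), went from 0.612 and 0.627 CPM to 7.11 and 7.15 CPM (3.52, SE 0.0911, adjusted p 5.16e-20). IFITM1, a membrane protein that blocks virus entry, went from 1.44 and 1.43 CPM to 13.0 and 10.9 CPM (3.03, SE 0.108). OASL went from 9.61 and 9.29 CPM to 47.1 and 44.6 CPM (2.28), and RIGI, a sensor of viral RNA, from 23.7 and 21.2 CPM to 70.2 and 71.7 CPM (1.66). EPSTI1 had 3 reads over both parental untreated libraries and 320 over both resistant indisulam libraries, a ratio of 141 with an exact 95% counting interval of 47.8 to 688. Members this close to 0 in parental cells passed the filter through other groups and could hardly have been called lower. STAT2, a transcription factor of this response, rose by 0.28 log2 units, the smallest difference of the list. Reads of IFIT1, IFIT2 and IFIT3 (1.39, 1.43 and 1.84) share their locus with LIPA on the opposite strand, which held 59.9% to 83.5% of each pair's reads.

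These levels on the drug were still well below those of the same line off it. The median of the 33 genes was 3.34 in resistant untreated against parental untreated cells and -2.07 in resistant indisulam against resistant untreated cells. Between the resistant groups all 33 were called lower, beside 25.8% of all genes. OAS2 averaged 111.3 CPM and IFITM1 53.7 CPM in resistant untreated cells, and the drug-treated resistant libraries held 7.11 and 7.15 CPM of OAS2 and 13.0 and 10.9 CPM of IFITM1. IFI6 averaged 62.6 CPM off the drug and read 2.03 and 2.32 CPM on it, against 0.621 and 0.505 CPM in parental untreated libraries. The list therefore stood between the naive level and the level off the drug, as the panels of levels in the 4 groups show for OAS2 and IFITM1.

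**Figure D3:**
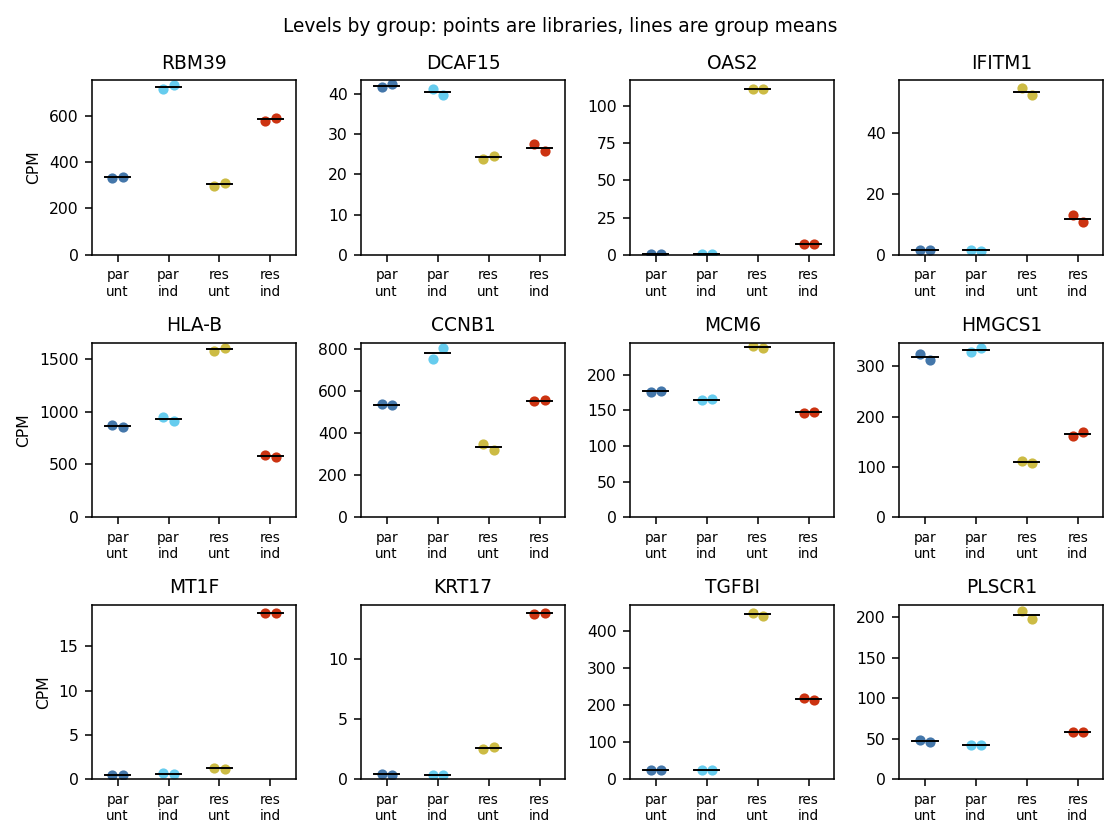
CPM of 12 genes in the 4 groups (par unt, parental untreated; par ind, parental indisulam; res unt, resistant untreated; res ind, resistant indisulam), with 1 point per library, lines at group means and every vertical axis starting at 0. OAS2, IFITM1 and PLSCR1 peak in resistant untreated cells, RBM39 is highest in the groups on the drug, and MT1F and KRT17 are highest in resistant indisulam cells.

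The interferon-stimulated response element is the site through which type I interferon is known to switch on many of these genes, and it was searched as GAAANNGAAA on both strands in RefSeq promoters (250 bases before to 50 after the start, GRCh38.p14). Of the 33 genes 27 had a promoter in that set and 17 held a match, against 3.65% of all 27305 promoters. A match is a description of the letters and not evidence of binding. The promoters of EPSTI1 (chr13:42992192-42992491, minus strand) and IFITM1 (chr11:313790-314089, plus strand) are shown because these genes had the largest rises among members with a match and a mean log2 CPM of 0 or more. Capitals mark the matches.
EPSTI1: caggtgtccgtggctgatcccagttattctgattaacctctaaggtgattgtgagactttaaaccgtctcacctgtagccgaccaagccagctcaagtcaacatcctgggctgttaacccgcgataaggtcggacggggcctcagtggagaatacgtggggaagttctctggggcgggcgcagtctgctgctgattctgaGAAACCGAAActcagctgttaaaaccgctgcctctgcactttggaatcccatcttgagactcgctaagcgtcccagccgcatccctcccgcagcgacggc
IFITM1: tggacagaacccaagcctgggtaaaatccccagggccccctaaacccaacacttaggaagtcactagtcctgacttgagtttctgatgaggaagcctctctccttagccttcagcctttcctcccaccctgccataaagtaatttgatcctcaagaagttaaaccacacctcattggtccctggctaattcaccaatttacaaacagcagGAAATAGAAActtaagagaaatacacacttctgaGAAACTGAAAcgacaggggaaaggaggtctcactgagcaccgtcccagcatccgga
EPSTI1 holds 1 copy and IFITM1 holds 2.

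Genes for antigen presentation by MHC class I, which interferon is also known to raise, went both ways. Of 14 genes 6 were higher and 7 lower, beside 32.2% and 32.6% of all genes, with a median of -0.03. HLA-B, one of the class I heavy chains, fell from 867.8 and 855.1 CPM to 589.4 and 572.6 CPM (log2 fold change -0.57, SE 0.0293, adjusted p 2.63e-14), and HLA-C (-0.49) and the light chain B2M (-0.30) were lower too. The class I genes are near-identical in part, so reads can be split among them. The peptide-handling genes PSMB9 (1.46), ERAP2 (0.99), ERAP1 (0.60) and TAP1 (0.50) were higher, although PSMB9 overlaps TAP1 and ERAP1 overlaps CAST, which held 82.0% and 85.4% of each pair's reads. Off the drug, resistant cells averaged 1588 CPM of HLA-B, so the fall below the naive level was found on the drug, where HLA-B was 1.45 log2 units lower than after the holiday (log2 fold change -1.45, adjusted p 2.69e-21).

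Of 28 listed chemokines and cytokines 23 passed the filter, and all 23 were higher in resistant indisulam cells, beside 32.2% of all genes. Of the 23, 19 were past 1 log2 unit, beside 9.22% of all genes, and the list's median log2 fold change was 1.45. CXCL8, the neutrophil attractant interleukin-8, went from 1.77 and 1.88 CPM to 9.55 and 9.48 CPM (2.38, SE 0.0829, adjusted p 1.44e-17). LIF, a cytokine of the interleukin-6 family, went from 57.5 and 59.0 CPM to 126.2 and 127.3 CPM (1.12, SE 0.0314), and CXCL16 from 19.1 and 18.0 CPM to 58.7 and 56.4 CPM (1.63, SE 0.0429). IL6 went from 0.0548 and 0.0655 CPM to 1.23 and 1.31 CPM (4.38, SE 0.255), IL1B from 0.0731 and 0.0281 CPM to 1.05 and 1.18 CPM (4.42, SE 0.289) and CCL5 from 0.201 and 0.112 CPM to 1.99 and 1.77 CPM (3.56, SE 0.208). For IL1A, 3 reads over the parental untreated libraries stood against 77 over the resistant indisulam libraries, a ratio of 34.0 (exact 95% counting interval 11.2 to 168). A member this close to 0 in parental cells could hardly have been called lower. The smallest differences were in IL18 (0.41) and CXCL3 (0.52), and the call for CXCL3 was lost when any 1 of the 4 libraries was left out (adjusted p 0.0688 to 0.12). For TNF (1.07, adjusted p 0.00777) the call was lost without parental untreated replicate 2 (0.77, adjusted p 0.106). Many of these transcripts stayed at a low level, since CCL20, IL1A, CXCL10, CXCL11, TNF and TNFSF10 were all under 0.6 CPM on the drug.

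Part of this list was higher on the drug than off it. Between the resistant groups 11 of the 23 were higher on the drug and 8 lower, beside 24.9% and 25.8% of all genes (median 0.23). IL6 (1.79), CCL20 (1.66) and IL1B (1.11) were higher on the drug, and the interferon-induced CXCL11 (-2.05), TNFSF10 (-2.11) and CXCL10 (-1.57) were lower. The kappa-B site is bound by NF-kappa-B, which is known to drive many of these genes in inflammation. The choice of list alone therefore favours matches, and a match is not evidence of binding. A kappa-B motif searched on both strands was found in the promoters of 9 of the 18 members that had one in the RefSeq set, among them CXCL1, CXCL2, CXCL3, CXCL5, CCL20 and IL6, against 10.8% of all 27305 promoters. The promoters of CXCL1 (chr4:73869143-73869442, plus strand) and CXCL5 (chr4:73998628-73998927, minus strand) are shown as the members with a match that rose most at a mean log2 CPM of 0 or more, with the matched stretch in capitals, where matches on both strands overlap.
CXCL1: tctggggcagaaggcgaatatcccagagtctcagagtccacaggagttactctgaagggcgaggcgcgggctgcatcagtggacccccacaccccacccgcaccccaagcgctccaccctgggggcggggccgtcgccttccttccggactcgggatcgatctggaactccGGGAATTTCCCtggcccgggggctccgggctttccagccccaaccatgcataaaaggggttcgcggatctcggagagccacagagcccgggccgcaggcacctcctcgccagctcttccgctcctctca
CXCL5: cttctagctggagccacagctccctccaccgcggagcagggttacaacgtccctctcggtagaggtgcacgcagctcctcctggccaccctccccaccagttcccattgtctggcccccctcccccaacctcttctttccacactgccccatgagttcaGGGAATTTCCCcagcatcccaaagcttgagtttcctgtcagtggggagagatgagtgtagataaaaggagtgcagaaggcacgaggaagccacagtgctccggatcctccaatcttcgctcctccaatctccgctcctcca
CXCL1 went from 0.740 and 0.618 CPM to 2.60 and 2.38 CPM (1.86, SE 0.138) and CXCL5 from 3.43 and 3.40 CPM to 8.91 and 9.10 CPM (1.40, SE 0.0668), and the capital letters are the same in both promoters.

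Metallothioneins, small proteins that bind zinc and copper and are induced by metals through the factor MTF1, were looked up after MT1F had appeared among the largest rises. All 6 that passed the filter were higher past 1 log2 unit, beside 9.22% of all genes. MT1A, MT1H, MT1L and MT1M had at most 15 reads in any library and were not tested. MT1B and MT1G were near 0 in parental untreated cells and passed the filter through other groups. They could therefore hardly have been called lower. MT2A went from 407.6 and 404.2 CPM to 845.0 and 796.0 CPM (log2 fold change 1.01, SE 0.0323, adjusted p 7.84e-18), MT1E from 55.7 and 52.1 CPM to 117.1 and 117.6 CPM (1.12), MT1X from 1.03 and 1.10 CPM to 6.47 and 6.72 CPM (2.63) and MT1G from 0.0457 and 0.0281 CPM to 2.05 and 2.01 CPM (5.72). MT1B had 1 read over the parental untreated and 66 over the resistant indisulam libraries, a ratio of 87.3 (exact 95% counting interval 15.1 to 3500). The genes are close paralogs, so some reads may be assigned to the wrong member. On the drug 5 of the 6 were higher than after the holiday, beside 24.9% of all genes. MT1X was higher by 2.16 and MT2A by 0.62 log2 units, and MT1E was the exception (0.04, adjusted p 0.303).
The metal response element, searched as TGCACNC on both strands, was in the promoters of the 3 members with one in the RefSeq set and in 11.9% of all 27305 promoters. The promoters of MT1X (chr16:56682220-56682519, plus strand) and MT2A (chr16:56608334-56608633, plus strand) are shown with the matches in capitals.
MT1X: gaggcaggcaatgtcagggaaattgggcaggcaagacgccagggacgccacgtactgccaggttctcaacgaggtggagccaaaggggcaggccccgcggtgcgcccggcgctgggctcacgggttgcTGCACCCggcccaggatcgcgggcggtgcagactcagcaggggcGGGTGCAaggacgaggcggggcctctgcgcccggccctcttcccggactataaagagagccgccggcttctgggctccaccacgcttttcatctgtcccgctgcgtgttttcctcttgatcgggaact
MT2A: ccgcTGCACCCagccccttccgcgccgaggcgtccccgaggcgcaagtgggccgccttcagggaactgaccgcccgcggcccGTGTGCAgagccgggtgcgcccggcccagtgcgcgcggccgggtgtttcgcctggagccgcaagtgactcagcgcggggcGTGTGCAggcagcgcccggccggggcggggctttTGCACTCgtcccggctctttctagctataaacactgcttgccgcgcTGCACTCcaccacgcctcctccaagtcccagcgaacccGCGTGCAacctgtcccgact
MT1X holds 2 matches and MT2A 6, and their genes rose by 2.63 and 1.01 log2 units. Here too a match describes the letters and is not evidence of binding.

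Genes of epithelial identity and genes of a mesenchymal program were both higher. For comparison, 32.2% of all genes were called higher and 32.6% lower. Of 20 epithelial genes 17 were higher and 2 lower (median 0.46). CDH1, which encodes E-cadherin, went from 201.5 and 200.5 CPM to 304.2 and 311.8 CPM (log2 fold change 0.62, SE 0.0271, adjusted p 1.35e-15), CDH3 from 40.7 and 39.2 CPM to 137.0 and 135.4 CPM (1.77), and the tight junction gene CLDN1 from 0.274 and 0.225 CPM to 3.90 and 3.94 CPM (3.97). CRB3 (-0.72), whose overlap with SLC25A23 makes its value uncertain, and ESRP2 (-0.33) were lower. Of 22 mesenchymal genes 15 passed the filter, of which 12 were higher and 1 lower (median 1.07). Those that moved most encode matrix proteins. TNC was near 0 in parental untreated cells and could hardly have been called lower. THBS1, thrombospondin 1, went from 105.8 and 110.1 CPM to 1168 and 1148 CPM (3.42, SE 0.0321, adjusted p 5.32e-28), TGFBI from 25.7 and 25.3 CPM to 218.4 and 215.0 CPM (3.09), FN1, fibronectin, from 36.0 and 36.2 CPM to 172.1 and 174.8 CPM (2.26) and TNC, tenascin C, from 0.0274 and 0.0187 CPM to 8.91 and 9.03 CPM (8.51, SE 0.177). VIM, the intermediate filament vimentin, rose by 1.75 but reached only 1.08 and 1.07 CPM, the regulator ZEB1 did not pass the test (0.07, adjusted p 0.361), and CDH11, TWIST1 and TWIST2 had no reads. AXL, a receptor kinase of the same list, was lower (-0.34).

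Pancreatic cancers are often sorted into a classical and a basal-like class. The counts of both lists stand beside 32.2% of all genes called higher, 32.6% called lower and 9.22% higher past 1 log2 unit. Of 23 basal-like genes 15 passed the filter, of which 12 were higher and 2 lower (median 1.23). Past 1 log2 unit 8 were higher. With a filter at a mean CPM of at least 1, 8 were called higher and 2 lower, and the median was 0.87. KRT17, a basal keratin (ENSG00000128422, chromosome 17, 41619442 to 41624842), went from 0.420 and 0.402 CPM to 13.8 and 13.9 CPM (5.07, SE 0.102, adjusted p 3.59e-22), and VGLL1, a partner of TEAD transcription factors, from 1.68 and 1.72 CPM to 48.5 and 45.8 CPM (4.79, SE 0.0643). SERPINB3, which is nearly identical to SERPINB4, had 1 read over the parental untreated and 36 over the resistant indisulam libraries, a ratio of 47.6 (exact 95% counting interval 8.02 to 1930). A gene this close to 0 in parental cells could hardly have been called lower. UCA1, a long noncoding RNA, fell from 415.2 and 420.2 CPM to 180.3 and 178.2 CPM (-1.22, SE 0.0268). The basal keratins KRT5, KRT6A and KRT14 and the factor TP63 had at most 8 reads in any library and were not tested. Of 23 classical genes only 6 passed the filter, and 4 of them were higher, or 2 with a mean CPM of at least 1. GATA6, which marks the classical class, went from 2.74 and 2.61 CPM to 6.14 and 6.04 CPM (1.18, SE 0.0865, adjusted p 1.88e-11). The other 17 classical genes had at most 11 reads in any library.

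Ductal keratins rose from a level that was already high, and 5 of 7 tested mucins were higher, beside 32.2% of all genes. KRT8 went from 2513 and 2442 CPM to 4839 and 4675 CPM (log2 fold change 0.94), its partner KRT18, which overlaps it, from 2256 and 2205 CPM to 4471 and 4318 CPM (0.98) and KRT7 from 747.0 and 755.2 CPM to 1642 and 1582 CPM (1.10). MUC1, a transmembrane mucin, went from 5.12 and 4.89 CPM to 19.2 and 17.6 CPM (1.88, SE 0.0609), and MUC4 had a log2 fold change of 0.61 (adjusted p 0.0219), a call that was lost when any 1 of the 4 libraries was left out (adjusted p 0.0626 to 0.106). MUC16, which carries the tumour antigen CA125, had no reads in parental untreated cells and 21 over the resistant indisulam libraries. With the parental group set to a floor of 3 reads it was 9.26-fold higher. Of 13 listed mucins 7 passed the filter, and none of these was called lower, which MUC16, without reads in parental untreated cells, could not have been.

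The urokinase system turns plasminogen into plasmin at the cell surface, and its genes rose on both the activating and the inhibiting side. Of 12 tested genes 10 were higher and 2 lower (median 0.52), beside 32.2% and 32.6% of all genes. The activator PLAT went from 3.50 and 3.23 CPM to 13.4 and 13.9 CPM (2.02, SE 0.0636), while the other activator PLAU (0.30) and the receptor PLAUR (0.77) moved less. Among inhibitors, beside SERPINB2, SERPINE2 had no reads in parental untreated cells and 142 over the resistant indisulam libraries. With the parental group set to a floor of 3 reads it was 62.6-fold higher. SERPINE2 passed the filter through other groups and could not have been called lower. PLGRKT, a plasminogen receptor, was lower (-0.93).

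Adhesion genes rose more often than they fell. The counts in this paragraph stand beside 32.2% of all genes called higher and 32.6% called lower. Of 17 integrin genes 12 were higher and 2 lower (median 0.50), led by the fibronectin receptor subunit ITGA5, from 7.92 and 7.77 CPM to 49.4 and 49.6 CPM (log2 fold change 2.66, SE 0.0436, adjusted p 8.29e-24), and by ITGB6, from 0.704 and 0.730 CPM to 4.60 and 4.42 CPM (2.65, SE 0.118). In the list of L1 family and neurite adhesion genes 6 of 10 were higher and 3 lower. Beside L1CAM, MCAM went from 11.9 and 11.8 CPM to 53.1 and 50.7 CPM (2.13), although it overlaps CBL, which held 84.7% of the pair's reads, and CNTN1 from 0.0731 and 0.0842 CPM to 1.69 and 1.51 CPM (4.31). Among 17 receptor kinases and ligands 11 were higher and 5 lower. The ligands AREG (1.23) and TGFA (0.51) were higher, while their receptor EGFR was lower, at 386.4 and 394.1 CPM against 307.2 and 311.3 CPM (-0.34, adjusted p 2.27e-10), as were MET (-0.21) and INSR (-0.95).

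Stress programs showed no common direction. Their counts stand beside 32.2% of all genes called higher and 32.6% called lower. Of 17 tested targets of NRF2, the oxidant-response factor, 6 were higher and 4 lower (median 0.03). HMOX1, which breaks down heme, went from 10.3 and 11.1 CPM to 18.5 and 16.9 CPM (0.72, SE 0.0577, adjusted p 2.42e-10), and SLC7A11, the cystine transporter, fell from 38.7 and 41.8 CPM to 23.7 and 24.6 CPM (-0.73). Of 21 targets of ATF4, the amino acid stress factor, 12 were higher and 8 lower (median 0.20). PHGDH was near 0 in parental untreated cells and could hardly have been called lower. CEBPB (1.07) and DDIT4 (0.63) were higher, whereas the serine synthesis enzymes PSPH (-0.84) and PSAT1 (-0.66) were lower and PHGDH, the first enzyme of that path, had 1 read over the parental untreated and 67 over the resistant indisulam libraries, a ratio of 88.6 (exact 95% counting interval 15.4 to 3550). Of 24 chaperones 8 were higher and 9 lower (median -0.002), with HSPB1 highest, from 163.1 and 161.0 CPM to 390.9 and 363.5 CPM (1.22, adjusted p 3.24e-06), and the ER chaperones HSPA5 (-0.39) and CALR (-0.37) lower.

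Mitosis genes of adapted cells on the drug were close to the naive level, while replication and G1-S genes were more often lower. Off the drug both lists stood away from the naive level. Of 28 mitosis genes 9 were higher and 12 lower, beside 32.2% and 32.6% of all genes. None was past 1 log2 unit, and the median of these mitosis genes was -0.06. Without parental untreated replicate 2 or resistant indisulam replicate 2, 5 were higher. CCNB1, the mitotic cyclin, was at 536.0 and 532.2 CPM in parental untreated and 552.5 and 555.0 CPM in resistant indisulam libraries (log2 fold change 0.05, adjusted p 0.236), with a mean of 334.5 CPM after the holiday and 0.73 log2 units higher on the drug than off it (adjusted p 1.08e-10). The median of the mitosis list was -0.56 in resistant untreated against parental untreated cells and 0.51 between the resistant groups. There 27 of 28 were called higher on the drug, beside 24.9% of all genes called higher and 25.8% called lower. Replication and G1-S genes moved the other way. Of 27 tested, 5 were higher and 15 lower than in naive cells (median -0.15), 3 being higher without parental untreated replicate 1, and between the resistant groups 25 were lower on the drug (median -0.43). MCM6, a subunit of the replicative helicase, was at 175.7 and 177.9 CPM in parental untreated and 146.5 and 148.5 CPM in resistant indisulam libraries (-0.26, adjusted p 1.04e-08) and averaged 239.0 CPM after the holiday. CCNE1, cyclin E1, stood apart in its list, from 4.18 and 4.25 CPM to 11.1 and 11.0 CPM (1.39, SE 0.0617).

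Of 22 CDK inhibitor and p53 target genes 7 were higher and 8 lower, near the 32.2% and 32.6% of all genes. CDKN1A, which encodes p21, went from 25.7 and 24.0 CPM to 64.1 and 61.6 CPM (log2 fold change 1.34, SE 0.0377, adjusted p 2.65e-19), PHLDA3, an inhibitor of AKT, from 0.101 and 0.0749 CPM to 3.19 and 2.66 CPM (5.02, SE 0.238) and TP53I3 from 11.9 and 11.8 CPM to 27.9 and 28.0 CPM (1.24). The p53 targets MDM2 (0.04, adjusted p 0.336) and ZMAT3 (-0.04, adjusted p 0.556) did not pass the test, and FAS (-0.74), which overlaps STAMBPL1, and SESN1 (-0.53) were lower. CDKN2C (-0.76) and CDKN2A (-0.57) were lower, as was MYC (-0.45).

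Sterol synthesis was the list with the lowest median. Of 23 genes 19 were lower and 3 higher (median -0.48), beside 32.6% and 32.2% of all genes. HMGCS1, which makes HMG-CoA, fell from 325.1 and 311.6 CPM to 161.2 and 169.2 CPM (log2 fold change -0.95, SE 0.0309, adjusted p 4.18e-18), MSMO1 from 299.3 and 289.7 CPM to 132.3 and 142.6 CPM (-1.10), and DHCR7 (-1.02) and the feedback regulator INSIG1 (-0.86) were lower too. The factor behind these genes, SREBF2, was lower by a log2 fold change of -0.56. ABCA1, which exports cholesterol, was higher (0.92). Off the drug the median of the list was lower still (-0.88). Between the resistant groups 16 of 23 were higher on the drug, beside 24.9% of all genes.

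Sugar metabolism and respiration differed in direction. All counts of these lists, the mitochondrial genome included, stand beside 32.2% of all genes called higher and 32.6% called lower. Of 25 glycolysis and hypoxia genes 16 were higher and 3 lower (median 0.26). SLC2A1, the glucose transporter GLUT1, went from 60.4 and 58.5 CPM to 133.5 and 132.7 CPM (1.16, SE 0.0293, adjusted p 3.1e-20), HK1 from 24.9 and 24.8 CPM to 50.4 and 49.0 CPM (1.00), ENO2 from 10.6 and 10.6 CPM to 26.0 and 25.8 CPM (1.29) and VEGFA from 67.9 and 66.6 CPM to 135.7 and 132.2 CPM (0.99), while GAPDH was lower (-0.15). Of 27 nuclear genes for the respiratory chain 24 were lower and 1 higher, all by less than 1 log2 unit (median -0.20). CYCS, cytochrome c, fell from 385.6 and 387.5 CPM to 267.8 and 273.3 CPM (-0.52, SE 0.0275), and SDHA fell from 22.3 and 22.7 CPM to 14.5 and 15.5 CPM (-0.58). Off the drug the median of this list was 0.01. Between the resistant groups 25 of 27 were lower on the drug, beside 25.8% of all genes. The 13 genes of the mitochondrial genome had a median of -0.27 with 3 called lower and 10 not called, and none was called lower without parental untreated replicate 2 or without resistant indisulam replicate 2.

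Efflux pumps carry drugs out of cells, and carbonic anhydrases are enzymes that sulfonamides are known to inhibit. ABCB1 and ABCG2, the pumps best known for drug resistance, had at most 5 reads in any library and were not tested. Of 10 ABC transporters that were tested 3 were higher and 2 lower, and 1 was higher when parental untreated replicate 1, resistant indisulam replicate 1 or resistant indisulam replicate 2 was left out. The transporter ABCC3 fell from 37.0 and 36.6 CPM to 28.2 and 25.4 CPM (log2 fold change -0.46, adjusted p 1.94e-09). Of 7 tested carbonic anhydrases 4 were higher and 1 lower (median 0.31). Both lists stand beside 32.2% of all genes called higher and 32.6% called lower. CA14 had the largest log2 fold change from a very low level, 0.110 and 0.0749 CPM against 0.178 and 0.302 CPM (1.42, SE 0.426, adjusted p 0.00565), and its call was lost without parental untreated replicate 2 (1.17, adjusted p 0.0571) and without resistant indisulam replicate 2 (0.92, adjusted p 0.215). CA13 went from 14.1 and 14.8 CPM to 20.1 and 20.6 CPM (0.50), and CA5B, which overlaps CA5BP1, fell from 8.88 and 9.08 CPM to 5.62 and 5.46 CPM (-0.70). CA2 went from 15.2 and 16.0 CPM to 19.2 and 19.5 CPM (0.31, adjusted p 1.92e-06), CA9, which overlaps ARHGEF39, did not pass the test (-0.24, adjusted p 0.128) and CA12 had at most 3 reads in any library.

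Some genes stood near the naive level on the drug but away from it in resistant cells after the holiday. The 2 steps compared were resistant untreated against parental untreated cells and resistant indisulam against resistant untreated cells. The first step includes the drug holiday and the second is its reverse, so they are not separate effects of line and drug. Among protein-coding genes whose mean log2 CPM was 2 or more and a net difference within 0.5 log2 units, the 6 with the largest opposite steps were PLSCR1, TDRD7, IFIT5, SLFN5, HSH2D and PIF1. PLSCR1, a scramblase induced by interferon, was at 48.1 and 46.4 CPM in parental untreated, averaged 202.8 CPM in resistant untreated, and was at 58.6 and 58.4 CPM in resistant indisulam libraries (net log2 fold change 0.31, SE 0.0333). SLFN5 was at 47.1 and 46.2 CPM in parental untreated, averaged 132.5 CPM after the holiday, and was at 46.9 and 48.6 CPM on the drug, with no net difference past the test (0.04, adjusted p 0.358). PIF1, a DNA helicase, was lowest after the holiday (mean 15.5 CPM), and the others, which are known to respond to interferon, were highest there. For TDRD7 the net difference (-0.19, adjusted p 0.0188) lost its call without parental untreated replicate 2 (-0.18, adjusted p 0.0832) and without resistant indisulam replicate 2 (-0.18, adjusted p 0.107). HSH2D overlaps RAB8A, which held 92.6% of the pair's reads. In 6 other genes both steps went the same way. CD24, a surface glycoprotein, was at 0.667 and 0.692 CPM in parental untreated, averaged 5.69 CPM after the holiday, and was at 16.4 and 16.8 CPM on the drug (4.61). KRT17 averaged 2.63 CPM after the holiday and was 2.40 log2 units higher on the drug (adjusted p 3.48e-17). ACKR2, MT1F and KCNAB2 were described above, and ADAMTSL4 (2.86) overlaps MCL1, which held 97.8% of the pair's reads.

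Genes were also ordered along the chromosomes, because neighbouring genes often differed alike. The tested genes of each chromosome were divided into 319 consecutive windows of at least 50 genes, and the median log2 fold change of each window was taken. The quartiles of these medians were -0.07 and 0.07, but 32 windows lay below -0.3. Runs of at least 2 adjacent windows below -0.3 or above 0.2, limits set after the values had been seen, held 1822 genes. On the short arm of chromosome 19 (60951 to 18369950) 9 adjacent windows with 450 genes had a median of -0.51, with 316 genes (70.2%) called lower and 51 (11.3%) higher. On chromosome 9 (37422666 to 128322447) 7 windows with 350 genes had a median of -0.54, with 251 (71.7%) called lower, and the lowest window of the genome lay within it (-0.81). On the long arm of chromosome 10 (73772276 to 133642894) 6 windows with 340 genes had a median of -0.36, with 222 (65.3%) called lower. Shorter runs were low at the start of chromosome 4 (-0.37), on chromosome 7 (-0.34) and at the start of chromosome 9 (-0.40). Runs on chromosomes 12 (0.30) and 20 (0.35 and 0.25) were high. Low values reached past these limits: all tested genes of chromosome 7 had a median of -0.23, those of chromosome 9 -0.41 and those of chromosome 10 -0.25. Genes outside the runs can therefore also lie in low windows. In all, 1440 genes (8.64% of those tested) lay in low runs, and they held 971 (17.9%) of the 5439 lower calls.

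**Figure D4:**
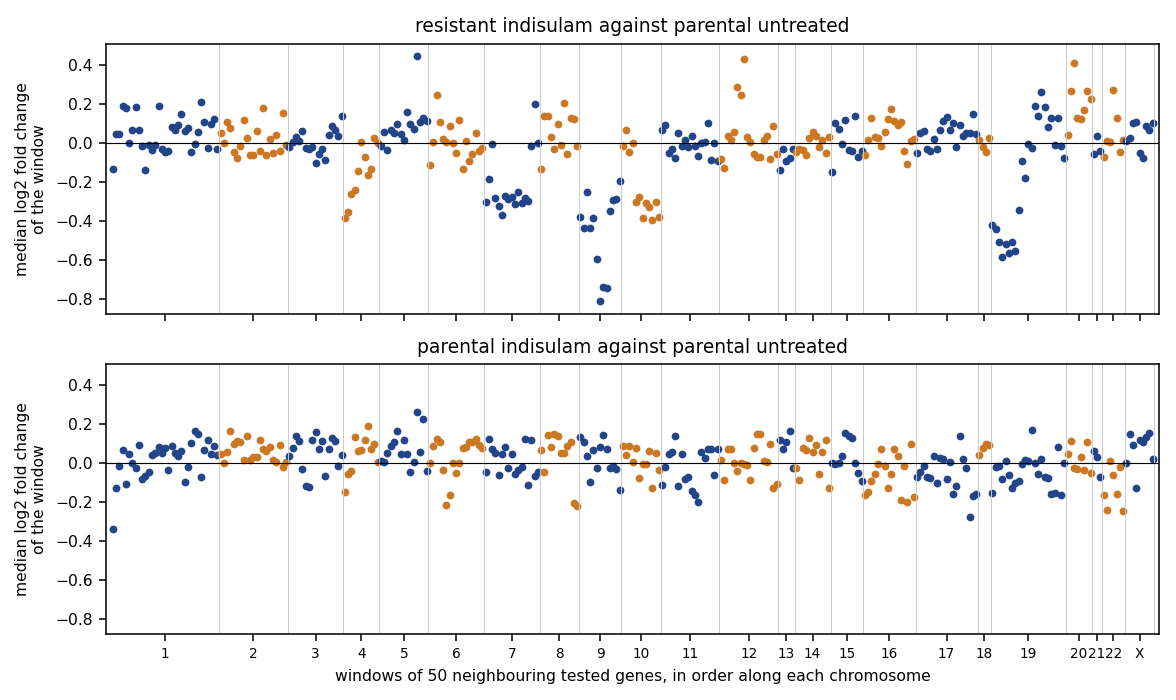
Median log2 fold change of each window of 50 neighbouring tested genes, in order along each chromosome, for resistant indisulam against parental untreated cells (top) and for parental indisulam against parental untreated cells (bottom). In the top panel the windows of chromosomes 9, 10 and 19 drop in contiguous runs to as low as -0.81, and in the bottom panel the same windows lie near 0.

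The runs were there in each library of the resistant line. For the 277 genes of the chromosome 19 run whose mean log2 CPM was 2 or more, the median difference from the parental untreated mean on the log2(CPM + 1) scale was -0.47 and -0.50 for resistant indisulam, -0.51 and -0.46 for resistant untreated and 0.01 and -0.06 for parental indisulam. For the 212 such genes of the longer chromosome 9 run these values were -0.58 and -0.55, -0.52 and -0.49, and 0.11 and 0.10. Between the resistant groups the medians of these runs were 0.02 and -0.05. DNA copy number was not measured here, and its part in these differences was not tested.

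DCAF15 and DDA1 lie in the chromosome 19 run. The window of 50 genes around DCAF15 had a median of -0.55 beside its own -0.66, and that around DDA1 a median of -0.34 beside its own -0.34, while the quartiles of the run's 277 genes were -0.68 and -0.34. RBM39, on chromosome 20, lay outside the runs, in a window with a median of 0.12 beside its own 0.81. Of the degradation genes outside the runs, 3 were higher and 5 lower of 14. TBC1D2, GDA and MIRLET7A1HG lie in the longer chromosome 9 run, as do FBP1 (-1.80), a gluconeogenic enzyme, and PCAT7 (-2.17), which overlaps FBP1 on the opposite strand. TBC1D2 (-1.92) was well below the median of its window (-0.81). PLCE1 and DOCK1 lie in the chromosome 10 run and ZNF426 in the chromosome 19 run. Other genes named above as lower also lie in low runs: UCA1, INSR, CRB3 and CALR on chromosome 19, HSPA5 and PSAT1 on chromosome 9, MIR31HG, PLGRKT and CDKN2A at its start, FAS on chromosome 10, and EGFR and PSPH on chromosome 7. INSR had a log2 fold change of -0.95 in a window with a median of -0.59, and EGFR -0.34 in a window with -0.37. KRT7, KRT8, KRT18 and ITGA5 lie in the high run on chromosome 12, in a window with a median of 0.43. TNC (8.51), ABCA1 (0.92), RIGI (1.66) and the IFIT genes were higher although their windows were low. Of the lists, 28 of the 33 interferon genes and 21 of the 23 sterol genes lay outside the runs, and their medians there were 1.67 and -0.48. The highest window of the genome (0.44) was on chromosome 5 and held protocadherin genes, of which PCDHB9 (2.56), PCDHB13 (2.23) and PCDHGB1 (2.2) rose most from low counts. PCDHGB1 went from 0.0914 and 0.103 CPM to 0.415 and 0.478 CPM, and PCDHGB5 held 97.0% of the pair's reads the 2 genes form. For PCDHB9 the log2 fold change was 1.63 without parental untreated replicate 2 (adjusted p 0.0528) and 6.24 without parental untreated replicate 1.

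The median net difference was close to 0 in every class of gene structure, while the shares past 1 log2 unit varied. By exon number of the canonical transcript, protein-coding genes had medians between -0.005 (4 to 6 exons) and 0.07 (1 exon), and by gene length between -0.006 (up to 10 kb) and 0.04 (100 to 300 kb). The share lower past 1 log2 unit was 1.53% of genes up to 10 kb and 4.46% of genes over 300 kb, and the share higher was 13.6% of genes with 1 exon and 8.42% of genes with over 20 exons. Of 558 processed pseudogenes, copies without introns of which some share reads with their parent gene, 23 (4.12%) were higher and 34 (6.09%) lower past 1 log2 unit (median -0.20).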

How the data were processed

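Poly(A) RNA of 8 libraries from Panc10.05 cells was sequenced in pairs on a stranded protocol. Per the labels and the study's methods, the authors trimmed reads with SeqPurge, aligned them to GRCh38 with HISAT2 2.2.1 and deposited 1 table of raw read counts per gene and library. HTSeq and Picard are named in the submitters' processing notes without a role, and the strand setting and annotation release are not given in the sources used here. Without a known strand setting, reads of overlapping genes cannot be told apart, so the share of a pair's reads held by the overlapping gene is given beside such values.

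Genes were filtered with filterByExpr, scaled by TMM and fitted with the robust quasi-likelihood model of edgeR 4.0.16 (R 4.3.3) over all 8 libraries in 4 groups, so that all groups share 1 estimate of the spread. The filter left 16661 genes of 60675 identifiers, of which 60419 matched the reference annotation. Calls use a Benjamini-Hochberg adjusted p under 0.05 over all tested genes. Levels are TMM-scaled CPM, and log2 fold changes carry their standard error. Ratios for genes with some but at most 3 reads in parental untreated cells use exact 95% binomial intervals, which cover counting error only. For genes without reads there, the parental group was set to a floor of 3 reads, and the ratio has no interval. Genes with at most 3 reads there passed the filter through other groups, so they could hardly have been called lower. Depth was 65781780 to 108002436 reads in genes over the 4 libraries compared. The scripts were tested on simulated counts.

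Named genes were those of the gene lists and up to 3 genes of the highest and lowest window. The 12 largest rises and 12 largest falls were taken among called protein-coding genes whose mean log2 CPM was 2 or more and whose groups did not overlap. The 4 largest of each direction among other genes were added. So were 6 genes with opposite and 6 with like steps from parental untreated to resistant untreated and on to resistant indisulam cells. Metallothioneins and further members of named windows were added after their values had been seen. The members and lists were chosen with earlier results of these data known. Alternatives were DESeq2 1.42.0, its size factors, library totals, other filters, the 4 libraries alone, a replicate block, a stricter threshold, glmTreat, protein-coding genes alone, thinned libraries and each library left out. Some genes are not reported here.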

Additional observations from a re-analysis of the deposited data

How the results depend on the processing

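Of 10798 genes called, 1536 were higher and 535 lower past 1 log2 unit. With glmTreat of edgeR against 0.5 log2 units 2978 genes were called, by construction a stricter question. With a mean CPM of at least 1, 685 genes were higher and 175 lower past 1 log2 unit, and with protein-coding genes alone 231 were lower, where fewer genes were tested. The other alternatives stayed within 1.5 times of these counts: the Wald test of DESeq2 gave 9049, 1369 and 400, and no filter beyond 1 read gave 11064, 1908 and 640. Leaving out 1 library gave 9519 to 9888 calls, 1512 to 1584 higher and 533 to 570 lower past 1 log2 unit. The median log2 fold change of all genes was -0.014 with TMM, -0.006 with DESeq2 size factors and 0.007 with library totals.

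Libraries of the same number did not deviate together (r of -0.057 to 0.023 between groups), so the numbers do not pair them. A replicate block gave 10686 calls, 1532 higher and 533 lower past 1 log2 unit, and no gene named in the text changed its call.

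For 192 named genes, 2766 of 2846 values under the alternatives kept direction and call, 75 lost and 5 gained the call, and none changed direction across the threshold. Of the losses 42 came with glmTreat, and CA14, CXCL3, MUC4, TDRD7, TNF, SRPK1, PCDHB9, EPCAM and MCL1 lost their call under at least 1 other alternative. Outside these 9 genes no call was lost under any alternative but glmTreat that tested the gene. A mean CPM of at least 1 and protein-coding genes alone left some of the named genes untested. CCNB1 (0.06, adjusted p 0.0225 with the 4 libraries alone), IFIT5 and U2AF2 gained one. The 4 residual degrees of freedom and the technical nature of the replicates limit what these tests can say about other cultures.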
